A study of Mus musculus with 6 samples.

Results

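Ccl2, Ccl7, Ccl8 and Ccl12, neighbouring mouse chemokine genes that include the classical attractants of monocytes, and Ccr2, the receptor of those attractants, were followed across the cells of mouse skin. They were taken by symbol and are 5 of the 16158 genes measured. Single-cell RNA was read from the skin of 6 NINJA mice, whose line lets a neoantigen be turned on by design, aged 6 to 12 weeks. The labels form 3 groups of 2 mice, NO_AG (antigen off), AG (antigen on) and AG_CPI (antigen on with CPI, an abbreviation the labels do not spell out), and in all 3 the skin area analysed had received 4-OH-Tam. Skin changes and P14 CD8 T cells, whose receptor is transgenic, were looked for in each animal by the submitters before sequencing. The labels give no sex, batch or date, and each mouse contributed 1 library.

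C-C chemokines are small secreted proteins that bind to the vessel wall and matrix and guide leukocytes along a gradient. Ccr2 is a seven-helix receptor coupled to inhibitory G proteins. It lets inflammatory monocytes leave the bone marrow and enter tissue, and activated T cells and some innate lymphocytes carry it too. Ccl2, Ccl7 and Ccl12 are its classical mouse ligands, whereas mouse Ccl8 signals mainly through Ccr8 and is a product of skin-resident macrophages.

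The 4 ligand genes lie together on chromosome 11, within a run of C-C chemokine genes. In the RefSeq annotation of GRCm38.p6, the order is Ccl2 (82035577 to 82037452), Ccl7 (82045712 to 82047525), Ccl11, Ccl12 (82101845 to 82103399) and Ccl8 (82115185 to 82116799), and the 4 members span 81223 bases. Ccr2 lies on chromosome 9, from 124101918 to 124109140. RefSeq promoter windows could be matched for 3 of the 5 genes, Ccl8, Ccl12 and Ccr2. The 250 bases upstream of the start site are printed for Ccl8 and Ccl12, on the plus strand of chr11:82114935-82115184 and chr11:82101595-82101844, because these neighbouring genes differed in which skin cells carried their transcripts. TATAAA is in capitals.

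Ccl8: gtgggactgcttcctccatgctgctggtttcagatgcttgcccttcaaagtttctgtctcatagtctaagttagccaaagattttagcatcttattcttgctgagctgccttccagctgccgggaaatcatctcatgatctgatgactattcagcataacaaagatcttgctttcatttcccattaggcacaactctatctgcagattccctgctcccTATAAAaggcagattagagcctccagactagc

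Ccl12: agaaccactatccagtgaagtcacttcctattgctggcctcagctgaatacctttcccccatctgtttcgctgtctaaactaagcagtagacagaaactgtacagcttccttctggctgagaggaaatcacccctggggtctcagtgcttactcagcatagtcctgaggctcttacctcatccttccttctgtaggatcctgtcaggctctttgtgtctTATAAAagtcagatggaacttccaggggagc

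In a global alignment, the 2 windows shared 153 identical bases over 266 columns, or 57.5%, against 49.3% for Ccl8 and 49.1% for Ccl12 with the window of Ccr2. TATAAA stood at -32 to -27 from the start of Ccl8 and at -31 to -26 from that of Ccl12, and 12.4% of the 32851 RefSeq windows hold it on either strand. The interferon-gamma element TTCNNNGAA, the NF-kB motif (GGG, any 2 bases, TTTCC), the interferon-stimulated element (GAAA, any 2 bases, GAAA) and the AP-1 motif TGANTCA, which 7.02%, 1.41%, 2.98% and 6.75% of windows hold on either strand, matched none of the 3. The Ccr2 window held none of the 5 motifs. That window, chr9:124101933-124102182, lies within the annotated gene, after its first base, and so does not show the sequence before the gene's outermost start.

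After filtering, 20464 of 21178 cells were kept, 1712 to 4764 a mouse, with a median of 2527 to 4744 UMIs per deposited cell. A UMI (unique molecular identifier) counts 1 captured RNA molecule once, and levels are given as mean UMIs of a gene per 10000 UMIs of a cell. Clusters were named from marker genes, so each name below stands for cells that are keratinocyte-like, T cell-like and so on. The summed level of 13 keratinocyte markers was 402 to 569 per 10000 in keratinocytes and 3.29 to 7.48 in T cells. Keratinocytes numbered 2330 and 1903 in NO_AG mice, 1097 and 2053 in AG mice, and 191 and 274 in AG_CPI mice. T cells numbered 814 to 1662 a mouse, and macrophages 22 and 16 in NO_AG mice, 158 and 487 in AG mice, and 223 and 209 in AG_CPI mice. A cluster with Krt6a and Krt16, keratins of stressed epidermis, held 1065 cells, 994 of them from AG mouse 2. Among 20921 distinct barcodes, 255 occurred in more than 1 library. No cluster was named monocyte, and 7 of the 10 monocyte markers were measured, so monocytes are described only through the C1q level of the joined monocyte and macrophage clusters. The 45 fibroblasts were joined with a cluster led by Crabp1 and Vcan as stroma, and only the comparison of AG with NO_AG had enough stromal cells.

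Of the 5 genes, 3 passed the filter on low values in keratinocytes (Ccl2, Ccl7 and Ccl8), all 5 in macrophages, Ccr2 alone in T cells and CD8 T cells, Ccl7 alone in stroma, and 4 (not Ccl7) in all cells together. Values over all cells depend on the numbers of each class as well as on levels within it. Differences are on the log2(level + 0.1) scale, from limma over all genes of a class. A gene was called at a Benjamini-Hochberg adjusted p under 0.05 over those genes. With 2 mice a group, an exact permutation test of a single gene cannot go below p = 0.333. The comparisons share their mice, NO_AG being the reference of 2 of them.

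**Figure D1:**
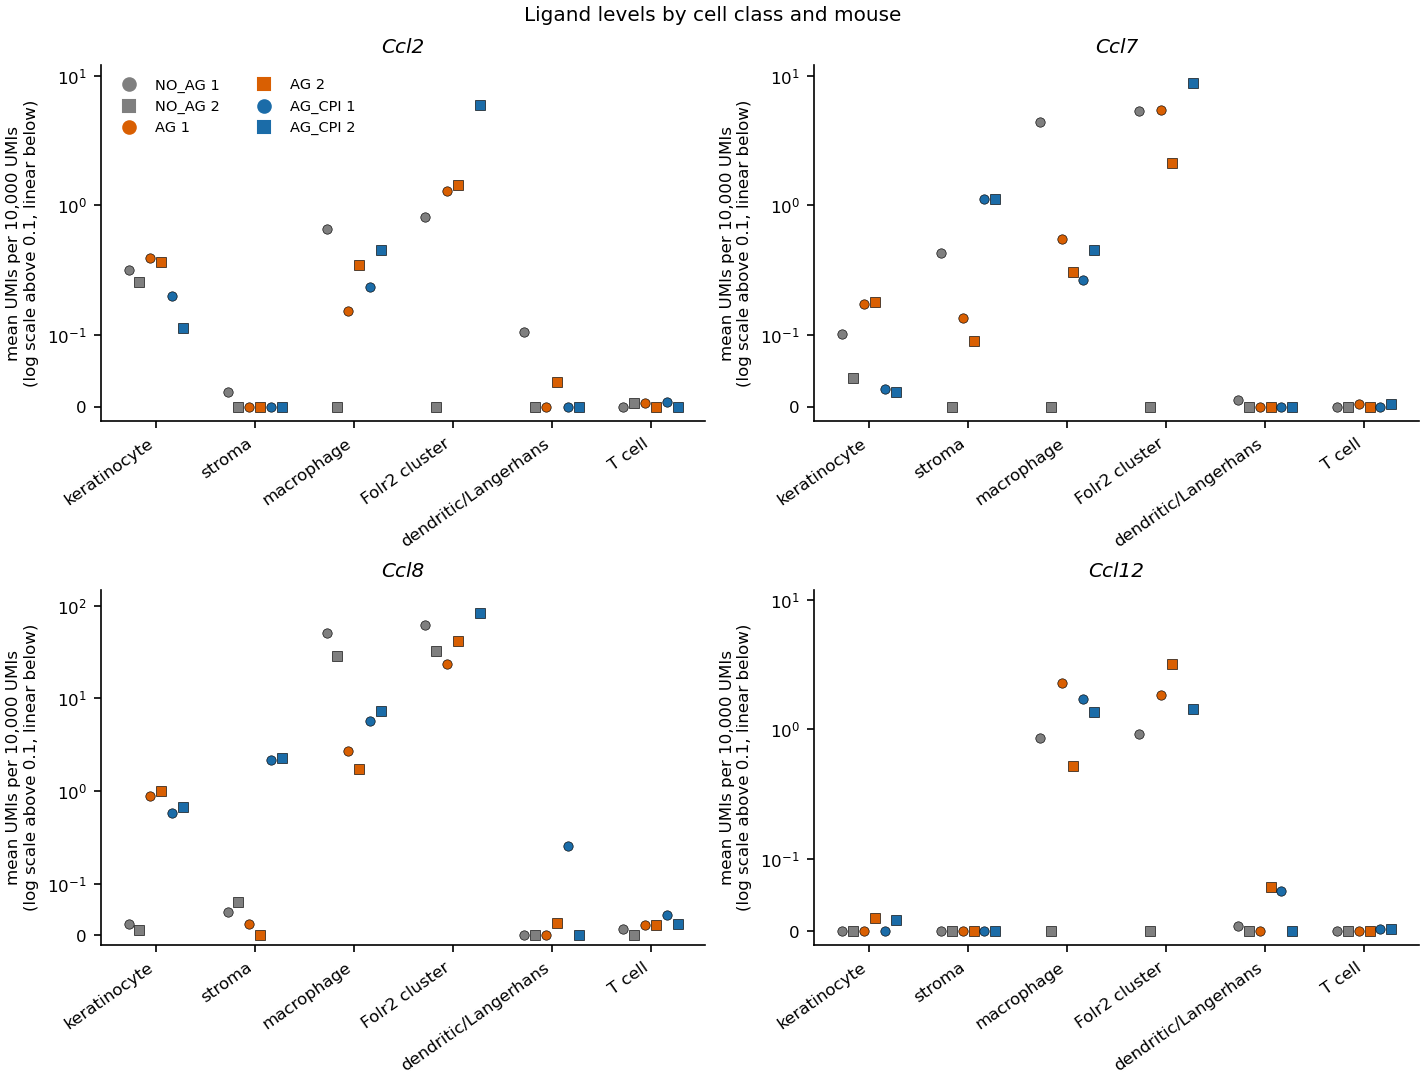
Mean UMIs per 10000 UMIs (y axis, log scale above 0.1 and linear below) of the 4 ligand genes in classes with at least 5 cells (x axis). Each point is 1 mouse, colour gives the group and shape the replicate. Ccl8 in keratinocytes was 0.0225 and 0.01004 in NO_AG mice and 0.573 to 0.993 in the other 4, and Ccl12 was nearly absent outside macrophages.

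Ccl8 rose in keratinocytes when the antigen was on. Its level was 0.0225 and 0.01004 per 10000 in the NO_AG mice, 0.875 and 0.993 in the AG mice, and 0.573 and 0.681 in the AG_CPI mice. The 4 mice with antigen lay far above both mice without it. Group means were 0.0163 ± 0.00879, 0.934 ± 0.0836 and 0.627 ± 0.0758 (SD, n = 2 each). AG exceeded NO_AG by 3.18 (SE 0.16, adjusted p = 0.0007453, limma), a comparison in which 0.49% of 8362 genes were called. AG_CPI exceeded NO_AG by 2.67 (adjusted p = 0.00144, limma), with 0.634% called. AG_CPI stood 0.50 below AG, but that did not pass (difference -0.50, 95% interval -0.87 to -0.13, adjusted p = 0.4388, limma, 0.0478% called). Ccl8 entered these fits through the AG and AG_CPI libraries alone, and without any filter the first 2 adjusted p-values were 0.0231 and 0.0354. NO_AG lay below the 0.1 added before the logarithm, and with 0.5 or 0.02 added instead these differences were 1.49 and 1.14 or 4.77 and 4.22, all passing.

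The share of keratinocytes with a Ccl8 UMI was 0.343% and 0.42% in NO_AG mice, 12.4% and 16.2% in AG mice, and 7.33% and 12.4% in AG_CPI mice. The Wilson 95% interval of the lowest of the last 4, AG_CPI mouse 1, was 4.42% to 11.9%. T cells, taken as the class for background, had a UMI in 0% to 0.84% of cells at a median of 2278 to 2649 UMIs, against 2373 to 6823 UMIs in keratinocytes. In all 4 antigen-bearing mice the keratinocyte share was above that of T cells. With cells thinned to 1400 UMIs, the mean keratinocyte shares were 0.181%, 7.95% and 5.68% in NO_AG, AG and AG_CPI. Keratinocytes also carried leukocyte transcripts. The summed level of the 11 T cell markers in them was 0.456 and 1.31 in NO_AG mice, 1.33 and 5.07 in AG mice and 2.08 and 5.65 in AG_CPI mice, and that of 6 genes shared by monocytes and macrophages was 0.0926 and 0.12, 0.152 and 1.24, and 1.51 and 0.521. Among keratinocytes with no UMI of 11 leukocyte genes, Ccl8 stood at 0.0111 and 0.0065 in NO_AG mice, 0.293 and 0.382 in AG mice, and 0.233 and 0.201 in AG_CPI mice. In these cells the differences from NO_AG were 2.02 for AG (adjusted p = 0.0121) and 1.56 for AG_CPI (adjusted p = 0.0249, both limma). Here too Ccl8 passed the filter on low values through the AG and AG_CPI libraries alone, and no fit of these cells without the filter was run.

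The gene was unevenly spread among keratinocytes, and the makeup of the class differed between groups. A cluster led by Ndufa4l2 and Fcgbp, with Ccl8 at 0.00125 and 0.0117 in NO_AG mice and 0.302 in AG mouse 1, held 24.1% and 19.0% of the keratinocytes in NO_AG mice, 5.29% and 0.146% in AG mice, and 0.524% and 0.365% in AG_CPI mice, and its part in the class means was not tested. In the cluster led by Krt1 and Krt10, keratins of differentiating cells, Ccl8 was 0.00934 and 0.0273 in NO_AG mice, 1.09 and 6.76 in AG mice, and 0.0721 and 2.65 in AG_CPI mice. A cluster with Stfa3, Krt14 and Krt5, keratins of the basal layer, held 0.05 and 0.0366, 3.42 and 6.675, and 0.328 and 1.70 in the same order. In the stress cluster with Krt6a and Krt16 it was 1.00 and 0.962 in AG mice and 2.87 and 0.487 in AG_CPI mice. In the cluster led by Cst6, Defb6 and Krt79, none of the mice exceeded 0.224, and in that with Sfrp1, Krt17 and Sox9 none exceeded 0.0205. AG_CPI mouse 1 was the lowest of the 4 antigen-bearing mice in both the Krt1 and the Stfa3 cluster and the highest in the stress cluster. Leaving out the stress cluster ended both calls, with differences of 3.19 (adjusted p = 0.061) and 1.90 (adjusted p = 0.142, limma). Without it Ccl8 was 0.873 and 1.02 in AG but 0.128 and 0.697 in AG_CPI.

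**Figure D2:**
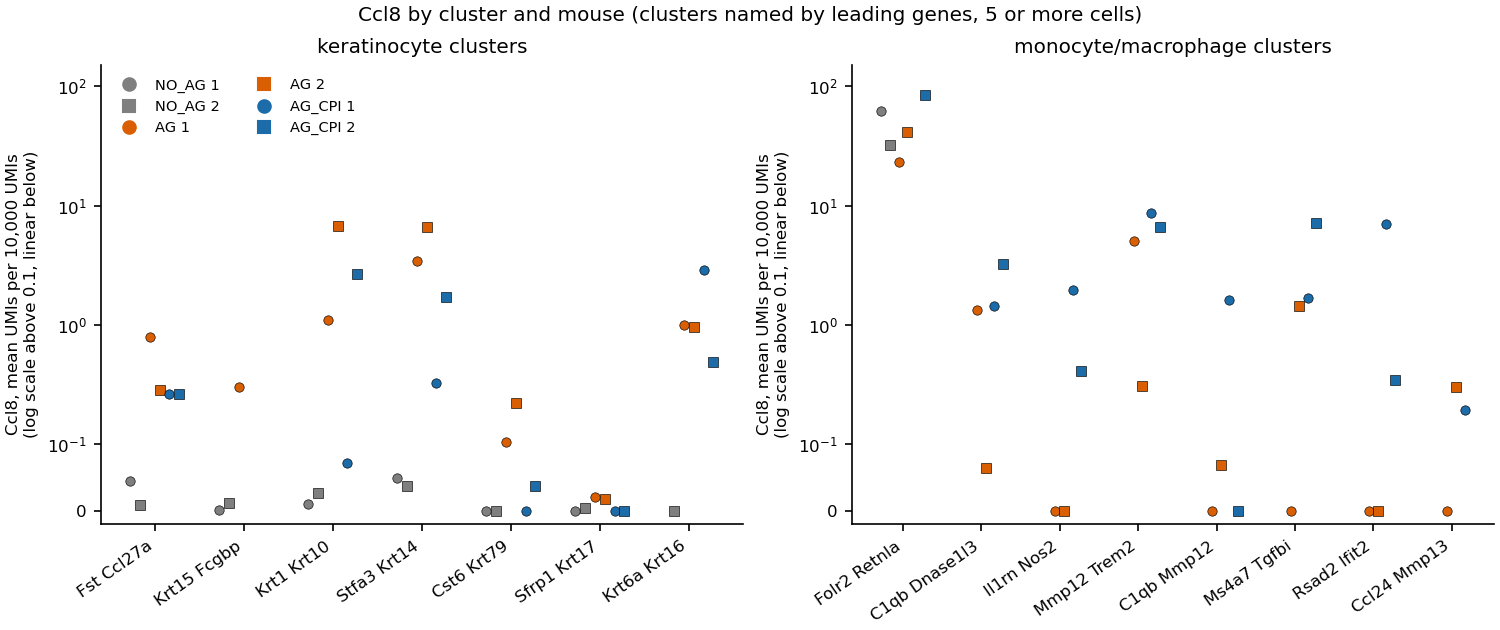
Mean Ccl8 UMIs per 10000 UMIs (y axis, log scale above 0.1 and linear below) in keratinocyte clusters (left) and monocyte and macrophage clusters (right), named on the x axis by leading genes. Each point is 1 mouse with at least 5 cells in the cluster. The Folr2 cluster lay between 23.3 and 84.5 in all mice shown, and the Krt1 cluster at 1.09 and 6.76 in the AG mice.

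Macrophages showed the opposite order for Ccl8. Their mean level was 50.9 and 28.4 per 10000 in NO_AG mice, 2.72 and 1.72 in AG mice, and 5.65 and 7.40 in AG_CPI mice. All 3 groups were separate, NO_AG highest and AG lowest. Of all genes, 14.5% were apart and lower in AG than NO_AG, 18.5% higher in AG_CPI than AG, and 15.1% lower in AG_CPI than NO_AG. AG was below NO_AG, with a difference of -3.59 (SE 0.37, adjusted p = 0.007773, limma), where 15.7% of 7331 genes were called and the median gene moved by 0.41. AG_CPI was below NO_AG too, with a difference of -2.04 (adjusted p = 0.0226, limma), with 16.2% called and a median gene of 0.42. Those medians fell to 0.10 under the deposited scaling alone, and the share of higher genes among those called from 85.6% to 66.6% and from 85.5% to 64.3%. Between AG_CPI and AG the difference was 1.55 (95% interval 0.65 to 2.44, adjusted p = 0.9999), in a comparison in which limma called 0.0% of genes and 96 (1.31%) had an unadjusted p under 0.05. That difference passed without either NO_AG mouse (adjusted p = 8.01e-07 and 6.94e-07, limma). Both calls against NO_AG failed without any 1 of the 4 antigen-bearing mice (adjusted p = 0.0802 to 0.136 and 0.0619 to 0.181) and held without either NO_AG mouse. Median depth in macrophages was 2223 and 2794 UMIs in NO_AG and 3605 to 6765 in the other mice. With macrophages thinned to equal depth, Ccl8 was 54.55 and 31.7 per 10000 in NO_AG mice. It was then 2.486 and 1.929 in AG mice and 5.734 and 8.031 in AG_CPI mice, the same order of groups.

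These class means moved with the makeup of the class. A cluster marked by Folr2, Retnla, Mrc1 and F13a1, genes of resident tissue macrophages, held 18 of 22 and 14 of 16 macrophages in NO_AG mice, but 13 of 158 and 15 of 487 in AG mice, and 3 of 223 and 8 of 209 in AG_CPI mice. Its Ccl8 level was 62.2 and 32.4 in NO_AG mice, 23.3 and 41.5 in AG mice, and 78.6 (3 cells) and 84.5 in AG_CPI mice. Within it, AG overlapped NO_AG, and a Ccl8 UMI was found in 50% to 87.5% of cells. It held every Ccl8 UMI of the NO_AG macrophages, 229 and 123. Outside it, Ccl8 was 0 in both NO_AG mice (4 and 2 cells), 0.871 and 0.452 in AG mice, and 4.66 and 4.33 in AG_CPI mice. Without the Folr2 cluster NO_AG had too few cells for a test, and AG_CPI exceeded AG by 2.65 (adjusted p = 4.87e-09, limma). With macrophages gated by marker UMIs in place of clusters, Ccl8 was 10.9 and 6.31 in NO_AG mice, 2.06 and 1.60 in AG mice, and 5.53 and 6.83 in AG_CPI mice. The gates took in 103 and 72 NO_AG cells, with the same 229 and 123 Ccl8 UMIs, and did not exclude dendritic or Langerhans cells. The difference of AG_CPI from NO_AG then did not pass (-0.044, adjusted p = 0.919), and AG_CPI exceeded AG (1.74, adjusted p = 0.00222, limma). Ccl8 was also high in the cluster led by Mmp12 and Trem2, at 5.01 and 0.309 in AG mice and 8.66 and 6.62 in AG_CPI mice.

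Stromal cells with Ccl8 were few. The fibroblasts, with Col1a1, Pi16 and Dpt, had 1, 1, 1 and 0 UMIs in the NO_AG and AG mice, and 3 and 6 UMIs in the 1 and 3 cells of the AG_CPI mice. Over all cells Ccl8 was 0.25 and 0.121 in NO_AG mice, 0.421 and 0.675 in AG mice, and 0.842 and 0.831 in AG_CPI mice. AG exceeded NO_AG by 1.30 (adjusted p = 0.04061) and AG_CPI exceeded it by 1.96 (adjusted p = 0.00261, limma). The backgrounds were 6.04% and 35.6% of 8855 genes called. The second difference held without any 1 of the 6 mice, but the first passed only without AG mouse 1 and failed without any of the other 5, at adjusted p-values up to 0.204. Which cells held those UMIs changed with the group. Keratinocytes held 12.4% and 6.01% of all Ccl8 UMIs in NO_AG mice, 80.0% and 65.1% in AG mice, and 4.64% and 11.4% in AG_CPI mice, and monocytes and macrophages held 85.8% and 92.5%, 19.1% and 30.04%, and 92.3% and 86.2%. These shares depend on numbers of cells as well as on levels.

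**Figure D3:**
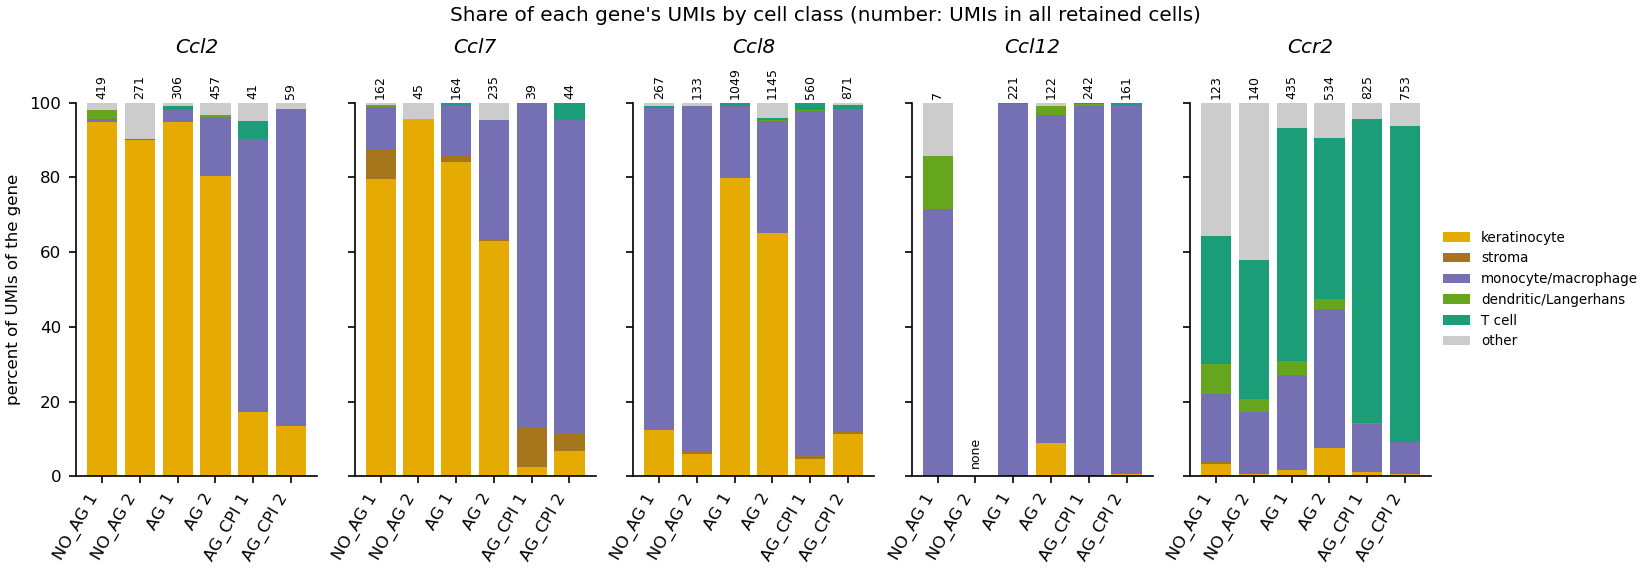
Stacked bars give the percent of a gene's UMIs (y axis, 0 to 100) held by each cell class in each mouse (x axis), with the number of UMIs above each bar. Keratinocytes held 80.0% and 65.1% of Ccl8 UMIs in the AG mice and 4.64% and 11.4% in the AG_CPI mice, and T cells held 81.5% and 84.7% of Ccr2 UMIs in the latter.

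Ccl2, the best studied of the Ccr2 ligands, was held mostly by keratinocytes in the mice without CPI. Its level in keratinocytes was 0.315 and 0.257 in NO_AG mice, 0.391 and 0.365 in AG mice, and 0.201 and 0.114 in AG_CPI mice. The 3 groups did not overlap, AG being highest and AG_CPI lowest. Of all genes, 21.6% were likewise apart and higher in AG than NO_AG, and 18.6% apart and lower in AG_CPI than AG. None of the 3 differences passed, at 0.37 for AG against NO_AG (adjusted p = 0.7534), -0.91 for AG_CPI against AG (adjusted p = 0.4364) and -0.55 for AG_CPI against NO_AG (adjusted p = 0.2903, limma). In keratinocytes with no leukocyte UMI the first was -0.040. A UMI was found in 4.98% and 6.15% of keratinocytes in NO_AG mice, 8.11% and 7.65% in AG mice, and 2.62% and 2.19% in AG_CPI mice, and in at most 0.181% of T cells. The AG_CPI shares rest on 5 and 6 cells with a UMI. Thinned to 1400 UMIs, the mean shares were 2.505%, 4.03% and 1.785%.

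Ccl2 was spread unevenly over the keratinocytes. In the cluster led by Fst, Sostdc1 and Ccl27a, it was 1.09 and 0.775 in NO_AG mice, 1.11 and 0.729 in AG mice, and 0 and 0.0688 in AG_CPI mice, where the cluster held 38 and 33 cells. Other clusters were high in 1 mouse alone, at 2.55 in 54 Krt1 and Krt10 cells of NO_AG mouse 2 and 2.48 in 52 Krt16 and Fam13a cells of AG mouse 2. In AG_CPI mouse 1 every keratinocyte Ccl2 UMI lay in the 31 cells of the stress cluster, at 1.24. Without that cluster the AG_CPI mice were at 0 and 0.0978, and the difference from AG was -1.85, which did not pass. Macrophage levels were 0.659 and 0 in NO_AG mice, 0.152 and 0.346 in AG mice, and 0.233 and 0.449 in AG_CPI mice, and the groups overlapped. The 3 macrophage differences, 0.52, 0.37 and 0.89, had intervals reaching from -1.72 to 2.98 and none passed. Keratinocytes held 94.8%, 90.04%, 94.8% and 80.3% of Ccl2 UMIs in the NO_AG and AG mice but 17.1% and 13.6% in the AG_CPI mice, in which monocytes and macrophages held 73.2% and 84.8%. The library totals behind these shares were 419, 271, 306 and 457 UMIs, and 41 and 59 in AG_CPI. Over all cells AG_CPI was 0.0604 and 0.0605, below 0.166 and 0.136 in NO_AG and 0.138 and 0.222 in AG, with differences of -0.75 from AG (adjusted p = 0.05816, 4.13% of genes called) and -0.51 from NO_AG (adjusted p = 0.05476, limma). Keratinocytes were 191 of 1712 and 274 of 2168 cells in AG_CPI, against 2330 of 4764 and 1903 of 3950 in NO_AG, so these values mix numbers with levels.

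Ccl7, which binds several receptors of monocytes, had the same order of groups as Ccl2 in keratinocytes. It stood there at 0.101 and 0.0398 in NO_AG mice, 0.173 and 0.18 in AG mice, and 0.0254 and 0.0209 in AG_CPI mice. The groups again did not overlap, as for 21.6% of all genes (higher in AG than NO_AG) and 18.6% (lower in AG_CPI than AG), and the differences of 0.75, -1.18 and -0.42 did not pass (adjusted p = 0.3672, 0.3816 and 0.4014, limma). In keratinocytes with no leukocyte UMI, from 81 to 1761 cells a mouse, the order was not seen. There the 3 groups overlapped, at 0.082 and 0.0369 in NO_AG mice, 0.102 and 0.0313 in AG mice, and 0 and 0.0561 in AG_CPI mice, the last from 2 UMIs. The AG_CPI values rest on 1 and 3 UMIs. In the Fst and Ccl27a cluster it was 0.52 and 0.188, 0.566 and 0.144, and 0 and 0.138. In macrophages Ccl7 was 4.34 and 0 in NO_AG mice, 0.545 and 0.305 in AG mice, and 0.266 and 0.449 in AG_CPI mice, so that the 2 NO_AG mice lay on either side of the rest. No direction could be read, with differences of -0.11, -0.19 and -0.30 and intervals from -3.87 to 3.46. In the Folr2 cluster it was 5.31 and 0, 5.44 and 2.11, and 4.65 and 8.76.

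Fibroblasts, 45 cells in all, held no Ccl2 UMI but did hold Ccl7. Their Ccl7 level was 2.44 and 0 in NO_AG mice, 0.571 and 0.412 in AG mice, and 8.97 (1 cell) and 2.24 (3 cells) in AG_CPI mice. Over the stroma AG differed from NO_AG by -0.14 (adjusted p = 0.9893, limma, 0.305% of 8531 genes called), with an interval from -1.57 to 1.30. Ccl7 was also found in a cluster with Ccl24 and Mmp13, at 1.64 in the 63 cells of AG mouse 2 and 0 in 10 and 11 cells of AG mouse 1 and AG_CPI mouse 1.

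Ccl12, a ligand of Ccr2, was found almost only in macrophages. Its level there was 0.864 and 0 in NO_AG mice, 2.28 and 0.52 in AG mice, and 1.70 and 1.35 in AG_CPI mice. AG overlapped NO_AG, whereas both AG_CPI mice were above both NO_AG mice, as were 40.4% of genes. The differences from NO_AG, 2.24 for AG and 2.67 for AG_CPI, did not pass (adjusted p = 0.1972 and 0.1344, limma), and the NO_AG values come from 5 and 0 UMIs. Without NO_AG mouse 1, the one with UMIs, both passed (3.75 and 4.175, adjusted p = 3.57e-12 and 9.17e-14), and without NO_AG mouse 2 the second did (1.16, adjusted p = 0.00574, limma). AG_CPI stood 0.43 above AG (95% interval -2.07 to 2.92, adjusted p = 0.9999). With macrophages gated by marker UMIs instead of clusters, both differences from NO_AG passed, at 2.92 (adjusted p = 0.000421) and 3.39 (adjusted p = 8.53e-05, limma). The gates took in 103 and 72 cells in NO_AG mice, against 22 and 16 by cluster, and did not exclude dendritic or Langerhans cells. Ccl12 in the gated NO_AG cells was 0.198 and 0, so these fits rest on a different set of NO_AG cells. A Ccl12 UMI was found in 18.2% and 0% of macrophages in NO_AG mice, 24.1% and 6.98% in AG mice, and 17.0% and 22.5% in AG_CPI mice, against at most 0.487% of keratinocytes.

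Mice of 1 group differed widely in Ccl12 within a cluster. In the cluster with the interferon-induced genes Rsad2 and Ifit2 it was 7.51 and 0.92 in AG mice and 3.96 and 1.49 in AG_CPI mice, in the cluster led by C1qb and Dnase1l3 3.14 and 0.501, and 1.77 and 2.92, and in the Mmp12 cluster 0.164 to 0.355 in these 4 mice. The Mmp12 cluster was the lowest of the 3 in each of these mice. Over all cells Ccl12 was 0.00517 and 0 in NO_AG mice, 0.107 and 0.0688 in AG mice, and 0.225 and 0.134 in AG_CPI mice, so that it passed the filter through the antigen-bearing libraries alone. AG_CPI exceeded NO_AG by 1.51 (adjusted p = 0.002547, or 0.0129 with no filter, 35.6% of genes called), and AG stood 0.88 above NO_AG, which did not pass (adjusted p = 0.05574, limma). Macrophages numbered 22 and 16 in NO_AG mice and 223 and 209 in AG_CPI mice, so these all-cell differences mix numbers with levels. Monocytes and macrophages held 99.5% and 87.7% of Ccl12 UMIs in AG and 99.2% and 98.8% in AG_CPI, whose libraries had 221, 122, 242 and 161 of them, while NO_AG had 7 and 0.

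Macrophages with any ligand were a minority where antigen was on. None of the 4 ligands was detected in 50% and 43.8% of macrophages in NO_AG mice, 69.0% and 83.6% in AG mice, and 68.2% and 59.3% in AG_CPI mice. In the 4 mice with antigen on, Ccl7 was detected in a larger share of macrophages with a Ccl2 UMI than of those without. It was 22.2% of 9 against 2.68% of 149 in AG mouse 1 and 38.5% of 26 against 2.17% of 461 in AG mouse 2. In the AG_CPI mice it was 30% of 10 against 1.88% of 213, and 40.0% of 20 against 1.59% of 189. The NO_AG mice had 1 macrophage with a Ccl2 UMI in all, and it had no Ccl7. The part of cell depth in this was not tested.

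**Figure D4:**
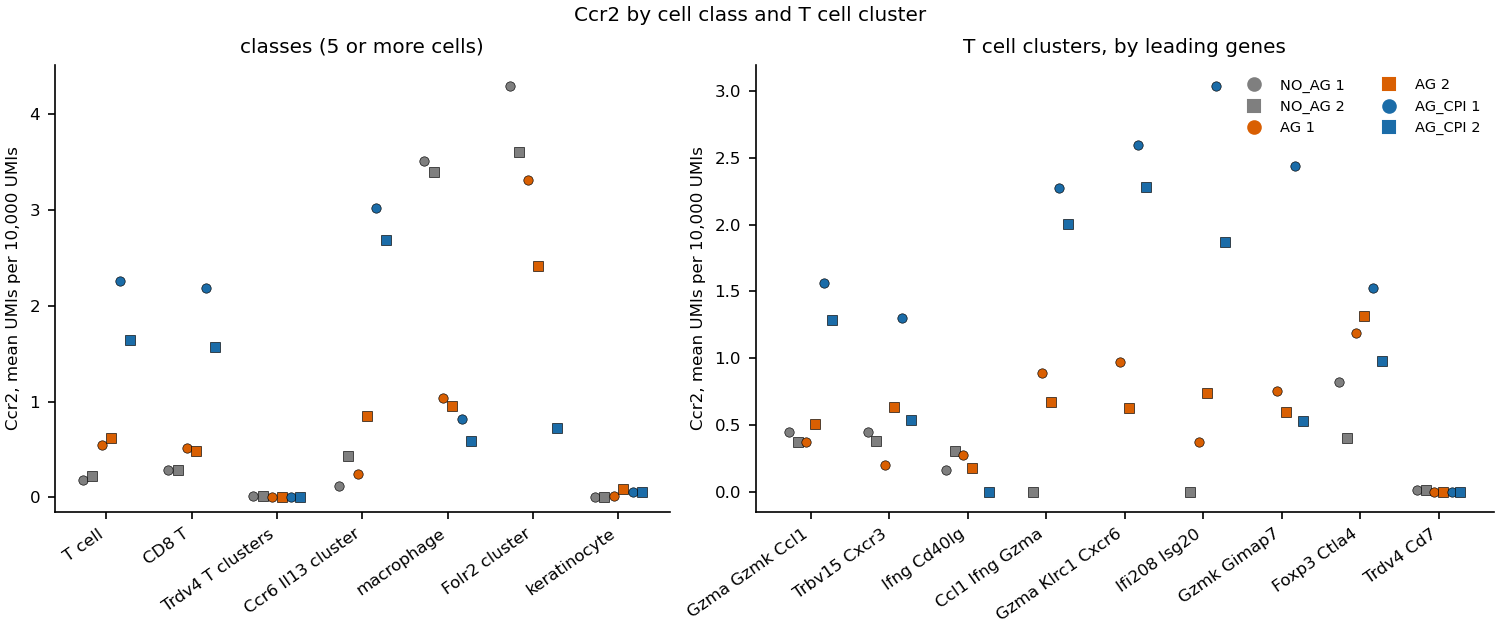
Mean Ccr2 UMIs per 10000 UMIs (y axis, linear) by class (left) and by T cell cluster, named by leading genes (right). Each point is 1 mouse with at least 5 cells. In CD8 T cells the AG_CPI mice stood at 2.18 and 1.57 and the other 4 between 0.285 and 0.519, and the clusters with Trdv4 were near 0.

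Ccr2, the receptor, rose in T cells under CPI. In CD8 T cells, defined by a Cd8a or Cd8b1 UMI and none of Cd4 or Trdc, it was 0.290 and 0.285 in NO_AG mice, 0.519 and 0.484 in AG mice, and 2.18 and 1.57 in AG_CPI mice. The 3 groups did not overlap, AG_CPI being highest, and 24.2% of genes were apart and higher in AG than NO_AG and 20.8% in AG_CPI than AG. AG_CPI exceeded AG by 1.69 (SE 0.21, adjusted p = 0.004983, 0.162% of 7427 genes called) and NO_AG by 2.43 (adjusted p = 1.469e-05, 4.17% called). AG stood 0.74 above NO_AG, which did not pass (95% interval 0.28 to 1.19, adjusted p = 0.1201, limma, 1.78% called). Without AG_CPI mouse 1, AG_CPI against AG was 1.46 (adjusted p = 0.303), thinned to 1400 UMIs a cell it was 1.67 (adjusted p = 0.0524), and with no filter on low values the adjusted p was 0.244. The share of CD8 T cells with a Ccr2 UMI was 6.67% and 6.28% in NO_AG mice, 10.7% and 10.2% in AG mice, and 30.9% and 27.7% in AG_CPI mice, and that of keratinocytes, taken as background, 0.0525% to 2.09%. Thinned, the mean shares were 4.69%, 5.88% and 19.9%. The median depth of CD8 T cells was 2234 to 2709 UMIs.

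In all T cells the values were 0.178 and 0.219, 0.55 and 0.625, and 2.26 and 1.65. All 3 differences passed, at 1.34 for AG over NO_AG (adjusted p = 0.003244), 1.63 for AG_CPI over AG (adjusted p = 0.007353) and 2.97 for AG_CPI over NO_AG (adjusted p = 3.944e-05, limma), where 10.5%, 0.891% and 18.5% of 7743 genes were called. Without AG_CPI mouse 1 the second was 1.40 (adjusted p = 0.131), and with no filter on low values its adjusted p was 0.0846. The makeup of this class shifted as well. Clusters with Trdv4, the receptor segment of dendritic epidermal T cells, held 517 and 344 cells in NO_AG mice, 238 and 112 in AG mice, and 6 and 17 in AG_CPI mice, and had only 3 Ccr2 UMIs in all. Without them the AG difference from NO_AG was 0.68 (adjusted p = 0.112), and those of AG_CPI still passed, at 1.45 over AG (adjusted p = 0.0225) and 2.13 over NO_AG (adjusted p = 0.000197).

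The gene was spread over several T cell clusters, whose sizes differed between groups. Cluster levels are over all cells of a cluster, not only those that met the CD8 T cell definition. A cluster with Gzma, a granzyme of cytotoxic cells, Klrc1 and Cxcr6 held 498 and 464 cells in AG_CPI mice, or 41.8% and 34.6% of T cells, but 83 and 55 in AG mice, or 4.99% and 4.67%. Ccr2 in it was 2.60 and 2.28 in AG_CPI against 0.968 and 0.627 in AG. The part of this shift in the CD8 T cell means was not tested. One with Ccl1, Ifng and Gzma stood at 2.28 and 2.01 against 0.893 and 0.668, and one with Gzma, Gzmk and Ccl1 at 1.56 and 1.29 against 0.374 and 0.507. A smaller one with Ifi208 and Isg20 was at 3.04 and 1.87 against 0.374 and 0.742. In these 4 clusters both AG_CPI mice exceeded both AG mice. In 3 others they did not. The cluster with Gzmk and Gimap7 had 2.44 and 0.526 against 0.753 and 0.598, and the one with Trbv15 and Cxcr3 had 1.30 and 0.538 against 0.203 and 0.633. The one with Ifng and Cd40lg was at 0 in the 17 cells of AG_CPI mouse 2 and at 0.273 and 0.174 in the AG mice, with too few cells in AG_CPI mouse 1. Clusters with Foxp3, the regulator of regulatory T cells, had 0.852 and 0.498 in NO_AG mice, 1.18 and 1.30 in AG mice, and 1.49 and 0.961 in AG_CPI mice, where AG and AG_CPI overlapped. In a cluster led by Ccr6, Il13 and Il17a, which is left without a cell type name, it was 0.121 and 0.437, 0.248 and 0.849, and 3.03 and 2.69, the last 2 from 8 and 13 cells.

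In macrophages Ccr2 was lower where antigen was on, at 3.52 and 3.40 in NO_AG mice, 1.04 and 0.955 in AG mice, and 0.819 and 0.585 in AG_CPI mice. The differences from NO_AG were -1.23 for AG (adjusted p = 0.02876) and -1.70 for AG_CPI (adjusted p = 0.01579, limma), where 15.7% and 16.2% of all genes were called and 14.5% and 15.1% were apart and lower, and AG_CPI against AG, at -0.46, did not pass. Both calls failed without any 1 of the 4 antigen-bearing mice (adjusted p = 0.0802 to 0.16 and 0.0619 to 0.168), and the first also with thinning (adjusted p = 0.0896), doublets kept (0.0749), stricter cell filters (0.0769) or no filter on low values (0.0586). The Folr2 cluster, the bulk of the NO_AG class, had 4.30 and 3.61, 3.31 and 2.42, and 7.78 (3 cells) and 0.729. With macrophages gated by marker UMIs, which took in 103 and 72 cells in NO_AG, the levels were 0.722 and 0.748, 0.957 and 0.94, and 0.8 and 0.491, and the differences were 0.64 and 0.14 and did not pass. The summed level of the monocyte markers measured was 15.7 and 16.5 in the NO_AG macrophages, 3.46 and 6.69 in AG mice, and 4.71 and 3.94 in AG_CPI mice, with Vcan, Hp and Cd300e at 0 in both NO_AG mice. The monocyte list holds F13a1, which is also among the leading genes of the Folr2 cluster. In cells of the joined clusters without a C1q UMI, 16 and 91 in AG mice and 11 and 8 in AG_CPI mice, Ccr2 was 3.08, 1.10, 2.26 and 1.85, against 0.858, 0.978, 0.743 and 0.535 in those with over 10 C1q UMIs per 10000. In the 5 and 17 AG cells between these bounds it was 0.847 and 0.157, not above the cells with most C1q, and AG_CPI had too few such cells. Ccl8 was 0 in all 4 mice in the cells without a C1q UMI. A cluster of 22 cells led by S100a8 and S100a9 had Ccr2 at 6.07 in the 10 cells of AG_CPI mouse 1 and 0 in the 8 of AG mouse 1. It reached all 6 neutrophil markers but also 6 of the 7 monocyte markers measured, with Hp and Chil3 among its leading genes, and it is left without a cell type name.

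Over all cells Ccr2 was 0.0853 and 0.107 in NO_AG mice, 0.366 and 0.383 in AG mice, and 1.75 and 1.16 in AG_CPI mice. The median gene moved by 0.02 and 0.06 against NO_AG, or by -0.11 and -0.14 under the deposited scaling alone. The 3 differences were 1.37, 1.79 and 3.16 (adjusted p = 0.0203, 0.02356 and 0.000647, limma), where 6.04%, 4.13% and 35.6% of all genes were called. The second failed without AG_CPI mouse 1 (1.47, adjusted p = 0.167) or without either NO_AG mouse, and the first without either NO_AG mouse. T cells held 34.1% and 37.1% of Ccr2 UMIs in NO_AG mice, 62.5% and 42.9% in AG mice, and 81.5% and 84.7% in AG_CPI mice. Monocytes and macrophages held 17.9% and 16.4%, 25.5% and 37.1%, and 12.9% and 8.37%. Unnamed cells held others, among them a cluster with Gzmc and Ncr1, with 37 UMIs in each NO_AG mouse.

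**Figure D5:**
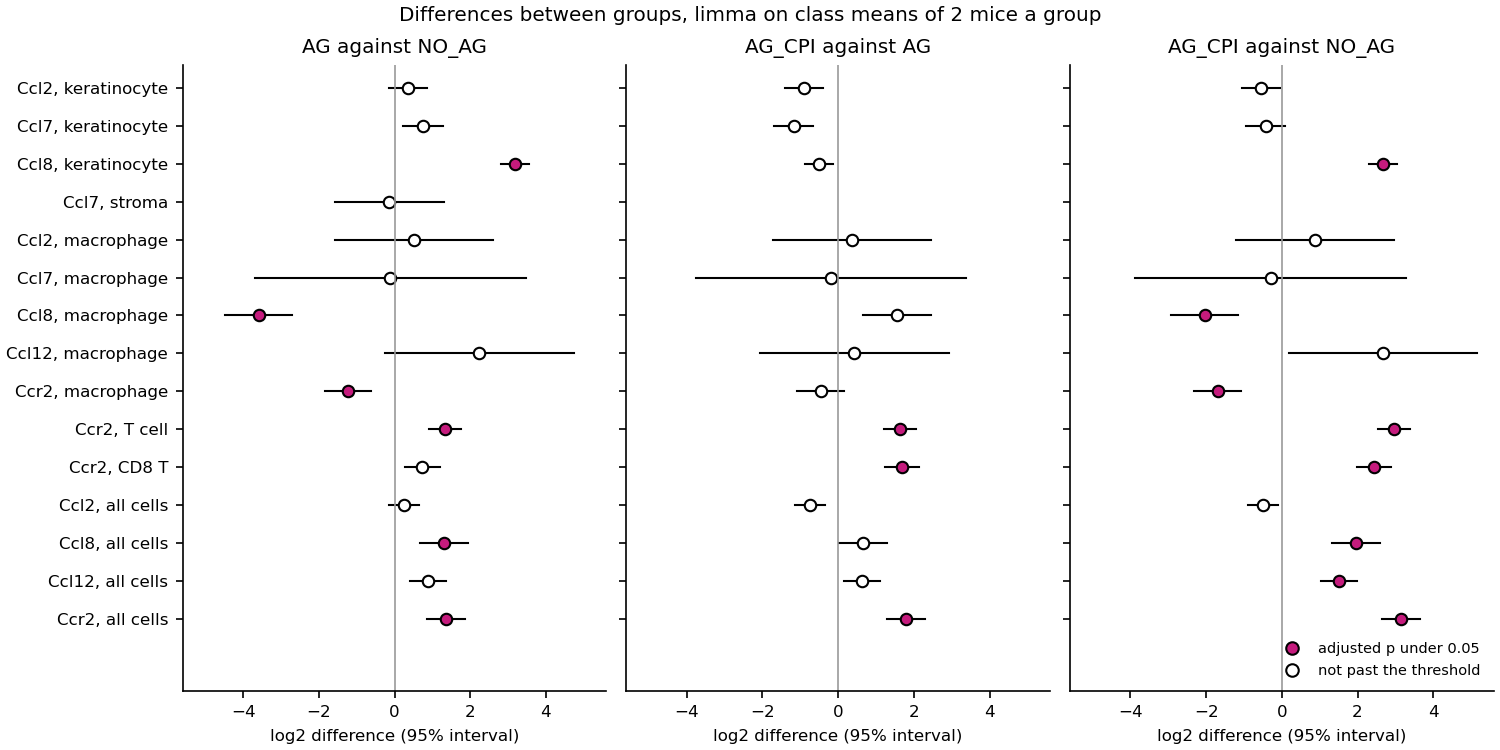
Differences in log2(level + 0.1) between groups (x axis) for each gene and class tested (y axis), with 95% intervals. Filled points passed an adjusted p of 0.05 in limma. Ccl8 was 3.18 higher in keratinocytes and differed by -3.59 in macrophages for AG against NO_AG, and Ccr2 in CD8 T cells was 1.69 higher for AG_CPI against AG.

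The rest of the pathway was described by 51 genes. In keratinocytes 28 were tested. Ifngr1, a chain of the interferon-gamma receptor, fell from 1.23 and 0.86 in NO_AG to 0.229 and 0.342 in AG_CPI, a difference of -1.50 (adjusted p = 0.0465, limma) that did not pass with no filter on low values (adjusted p = 0.163). None of the 8 other C-C and monocyte ligands tested there was called by limma, and they had a median difference of 0.49 for AG against NO_AG, against -0.02 over all genes.

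In T cells 11 of 31 tested genes were higher and 1 lower in AG than in NO_AG, and 13 and 1 in AG_CPI, where 10.5% and 18.5% of all 7743 genes were called. The median gene moved by -0.01 and 0.03, or by -0.15 and -0.16 under the deposited scaling alone, where 29.8% and 28.1% of called genes were higher instead of 50.6% and 53.2%. Of 6 other ligands 4 rose in AG, with a median of 2.35. Ccl5, Ccl4 and Ccl3, chemokines of activated T cells, rose in AG by 3.15, 3.86 and 4.63 (adjusted p = 0.001191, 0.001974 and 0.001974, limma). Ifng, the gene for interferon-gamma, went from 0.954 and 1.57 to 4.77 and 3.16 in AG mice and 3.84 and 3.96 in AG_CPI mice. In CD8 T cells Ccl5, Ccl4 and Ccl3 rose in AG by 1.84, 2.40 and 3.78, and Ifng was not called. The Trdv4 clusters held 517 of 814 and 344 of 859 T cells in NO_AG mice, but 6 and 17 cells in AG_CPI mice. Without them 145 and 365 genes were called against NO_AG instead of 815 and 1433. Their part in these pathway differences was not tested. Between AG_CPI and AG, 2 of the 31 were higher in AG_CPI and none lower, where 0.891% of all genes were called. Csf1, the growth factor of macrophages, was 0.0777 and 0.101 in NO_AG mice, 0.452 and 0.24 in AG mice, and 1.24 and 1.37 in AG_CPI mice (1.77 over AG, adjusted p = 0.009143). Ccr1, another receptor of Ccl7, was at most 0.0466 in NO_AG and AG and 0.248 and 0.237 in AG_CPI (1.35 over AG, adjusted p = 0.007353, limma), and it passed the filter on low values through the AG_CPI libraries alone. With no filter neither gene passed between AG_CPI and AG (adjusted p = 0.09228 for Csf1 and 0.05229 for Ccr1, limma). In CD8 T cells 4 of 30 were higher in AG and 5 in AG_CPI than in NO_AG, none lower, where 1.78% and 4.17% of all 7427 genes were called, and none was called by limma between AG_CPI and AG. Of the called genes 83.3% and 68.1% were higher, or 70.6% and 52.9% under the deposited scaling.

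In macrophages 10 of 34 tested genes were higher and 2 lower in AG than in NO_AG, and as many in AG_CPI, where 15.7% and 16.2% of all 7331 genes were called, 85.6% and 85.5% of them higher, or 66.6% and 64.3% under the deposited scaling alone. Ccr1, also a receptor of Ccl7, was 0 and 0.245 in NO_AG and 1.10 to 1.47 in the other 4 mice, higher by 3.16 and 3.22 (adjusted p = 0.01978 and 0.01793, limma). It would have passed the filter without the NO_AG mice, and with no filter the adjusted p-values were 0.0484 and 0.04623. Ccl6, a ligand of resident myeloid cells, went from 21.7 and 39.3 to 2.98 and 2.03 in AG and to 1.2 and 2.52 in AG_CPI, with differences of -3.03 and -3.50 (adjusted p = 0.01449 and 0.008576, limma). Ccl3, Ccl4 and Ccl17 were the higher and Ccl6 and Ccl9 the lower of 7 other ligands in AG. The Folr2 cluster made up 81.8% and 87.5% of the macrophages in NO_AG mice and 1.345% to 8.23% in the other 4, and its part in these pathway differences was not tested. The macrophage calls depended on single mice. For AG against NO_AG no gene was called in limma without any 1 of the 4 antigen-bearing mice, and 3789 to 4211 were called without a NO_AG mouse.

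Likeness of pattern was measured by Pearson's r of log2(level + 0.1) over 36 points, the means of 7 classes in the mice with enough cells, which share libraries and depth. Ccl8 was most like Pf4, F13a1 and Ms4a14 (r = 0.927, 0.911 and 0.908), and Ccl12 most like Msr1 and Fcgr4 (r = 0.946 for both). Ccl7 was nearest to Gdf3, Ropn1l and Cxcl1 (r = 0.851, 0.816 and 0.777), Ccl2 to Blnk, Sectm1a and Sowahc (r = 0.791, 0.787 and 0.768), and Ccr2 to Ifi209 and Ifi206 (r = 0.841 and 0.84). Among the members, Ccl7 with Ccl12 and Ccl2 with Ccl7 were the closest (r = 0.729 and 0.726), and Ccl2 with Ccr2 the least alike (r = 0.0752).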

How the data were processed

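The 6 files hold 1 library each, with 21178 cells and 16158 genes. The deposited values are log10 of 1 plus UMIs per 10000 UMIs of the cell. No header states this unit. It was read from the values, 100% of which gave whole UMIs when inverted (66.9% to 69.8% under the natural log). Per the submitters' processing notes, Cell Ranger 3.1 and mm10 were used. The genes in the files account for 95.4% to 96.7% of a library's UMIs, at 1501 to 14995 UMIs a cell.

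Cells needed 200 genes and at most 20% mitochondrial UMIs (51 failed), and the 663 with the highest Scrublet scores (a share that grew with the library's cell number) were removed as doublets in scanpy 1.11.5. Leiden clusters (resolution 1, 2000 variable genes without the members, 30 components, 15 neighbours) were named from marker lists, and the scoring was settled after leading genes were seen. Class means of linear values were scaled by a TMM implementation written for this purpose, log2-transformed after adding 0.1, and tested in limma 3.58.1 (R 4.3.3) with group as the only term, for genes with a mean of 0.1 in 2 libraries and 10 UMIs, in libraries with 10 cells of the class. The test was checked on simulated data. P-values measure the spread between mice. Wilson intervals (95%) cover counting error only.

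Members and gene lists were chosen with earlier results of these data known. Besides the members, the text names from the pathway list up to 5 called genes per comparison by smallest p, and the 3 genes most like each member. Other genes serve as cluster names. Some genes that meet this rule are not reported here. Alternatives are given in the closing section.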

Additional observations from a re-analysis of the deposited data

Results flagged for a closer look

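Opposite directions in 2 classes of the same mice were found for Ccl8 and Ccr2, where each mouse of one class lay above its reference group and each mouse of the other class below it. In a single class such separation was common. For AG against NO_AG, 21.6% of keratinocyte genes and 24.2% of CD8 T cell genes were apart and higher, and 14.5% of macrophage genes apart and lower. The share of genes apart in opposite directions in 2 classes was not computed. For Ccl8, the log2 difference of AG from NO_AG in keratinocytes (3.18) exceeded that in macrophages (-3.59) by 6.77, and for AG_CPI against NO_AG the gap was 4.72. These gaps depend on the pseudocount of 0.1, since keratinocyte Ccl8 for AG against NO_AG ranged from 1.49 to 4.77 over the alternatives. For Ccr2, the difference of AG from NO_AG was 2.57 larger in T cells than in macrophages and 1.97 larger in CD8 T cells. For AG_CPI against AG these gaps were 2.10 and 2.16, and for AG_CPI against NO_AG 4.67 and 4.13. On the macrophage side, AG_CPI against AG was -0.46 and did not pass (adjusted p = 0.9999, limma). The CD8 T cell side of AG against NO_AG, 0.74, did not pass either (adjusted p = 0.1201, limma). None of these differences between classes was tested. The macrophage side moved with the share of the Folr2 cluster in the class, and its part was not tested. For Ccl8 in AG_CPI against NO_AG, the direction in macrophages rests on that class mean. Within the Folr2 cluster the group means were 81.5 per 10000 in AG_CPI and 47.3 in NO_AG, and outside it 4.495 and 0. The first of these rests on 3 and 8 AG_CPI cells and the last on 4 and 2 NO_AG cells, too few to read a direction. With macrophages gated by marker UMIs, which took in 103 and 72 NO_AG cells, Ccl8 in AG_CPI differed from NO_AG by -0.044 (adjusted p = 0.919, limma). That of AG from NO_AG was -1.78, which passed. With the same gates, the differences of Ccr2 from NO_AG were 0.64 and 0.14, and neither passed. Groups of 2 mice are too small for a check on outlying samples.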

How the results depend on the processing

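Alternatives covered scaling, pseudocount, filters, doublets, clustering, marker gates, thinning, a replicate block and each mouse left out in turn. Of the member fits under alternatives listed in advance, 597 kept direction and call, 43 lost the call, 28 gained it and 19 turned. Those added after seeing the data (without certain clusters or cells) gave 19, 3, 1 and 1. The causes were not tested. Groups of 2 mice, 16 to 22 macrophages in NO_AG mice and still fewer cells in several clusters limit the precision.

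Without keratinocytes holding leukocyte UMIs, Ccl2 for AG against NO_AG was -0.040. Without the stress cluster, keratinocyte Ccl8 was 3.19 and 1.90 against NO_AG (adjusted p = 0.061 and 0.142). Without the Trdv4 clusters, T cell Ccr2 for AG against NO_AG was 0.68, and without the Folr2 cluster macrophage Ccl8 for AG_CPI against AG was 2.65. With no filter, the call was lost for Ccr2 in T cells (1.63) and CD8 T cells (1.69) for AG_CPI against AG, in macrophages for Ccr2 (AG, -1.23) and Ccl8 (AG_CPI, -2.04) against NO_AG, and in all cells for Ccl8 (1.30) and Ccr2 (1.37 and 1.79).

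The macrophage gate held 103 and 72 NO_AG cells, against 22 and 16 by cluster, and did not exclude dendritic or Langerhans cells. Marker gates gave, in macrophages against NO_AG (AG, then AG_CPI), Ccl12 2.92 and 3.39 (both passing), Ccl7 1.00 and 0.57, and Ccr2 0.64 and 0.14. They gave Ccl8 1.74 for AG_CPI against AG (passing) and -0.044 against NO_AG, and CD8 T cell Ccr2 0.92 for AG against NO_AG (passing). Pseudocounts of 0.5 and 0.02 gave keratinocyte Ccl8 1.49 and 4.77 (AG) and 1.14 and 4.22 (AG_CPI) and all-cell Ccl12 0.47 and 3.24 (AG_CPI) against NO_AG, all passing. A pseudocount of 0.02 turned macrophage Ccl7 to 0.84 and 0.62 and stromal Ccl7 to 0.45, and brought all-cell Ccl12 (2.28) and Ccl2 (-0.85) past the threshold. A pseudocount of 0.5 took all-cell Ccr2 (0.59) below it. Thinning gave macrophage Ccl7 0.18 and lost macrophage Ccr2 (-0.90), CD8 T cell Ccr2 (1.67) and all-cell Ccl8 (1.22), and gained all-cell Ccl2 (-0.53). Keeping doublets lost macrophage Ccr2 (-1.13) and gained all-cell Ccl12 (0.88) and Ccl2 (-0.52), and stricter cell filters lost macrophage Ccr2 (-0.93) and gained Ccl12 (0.92). The deposited scaling alone gained all-cell Ccl12 (0.87) and Ccl2 (-0.64).

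Replicate numbers are only names here, and deviations of same-numbered mice correlated at -0.275 to 0.134, so the mice were not treated as paired. A replicate block moved macrophage Ccl12 for AG_CPI against NO_AG (2.67) and all-cell Ccl12 for AG against NO_AG (0.88) past the threshold, and all-cell Ccl8 (1.30) below it, and called 164 genes instead of 53 in keratinocytes for AG_CPI against NO_AG.

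Leaving out a mouse, with the lone mouse of its group assumed to vary like the other groups, gave, for AG against NO_AG in macrophages, Ccl12 0.74 to 3.75, Ccl2 -0.82 to 1.85, Ccl7 -2.70 to 2.49, Ccl8 -4.05 to -3.14 and Ccr2 -1.33 to -1.14. For AG_CPI against AG they were Ccl12 -0.59 to 1.44, Ccl2 -0.027 to 0.77, Ccl7 -0.57 to 0.19 and Ccl8 1.19 to 1.91. For AG_CPI against NO_AG they were Ccl12 1.16 to 4.18, Ccl2 -0.45 to 2.22, Ccl7 -2.89 to 2.30, Ccl8 -2.499 to -1.59 and Ccr2 -1.92 to -1.48. Ccr2 for AG_CPI against AG ranged over 1.40 to 1.87 in T cells and 1.46 to 1.93 in CD8 T cells, and stromal Ccl7 over -1.35 to 1.08. In all cells the ranges were Ccl12 0.73 to 1.03, Ccl8 0.97 to 1.63 and Ccr2 1.30 to 1.43 (AG against NO_AG), Ccl2 -0.97 to -0.53 and Ccr2 1.47 to 2.11 (AG_CPI against AG), and Ccl2 -0.60 to -0.41 (AG_CPI against NO_AG).

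Thinning lowered the mean share of cells with a UMI, in NO_AG, AG and AG_CPI, to 4.69%, 5.88% and 19.9% for Ccr2 in CD8 T cells, 0.181%, 7.95% and 5.68% for Ccl8 and 2.505%, 4.03% and 1.785% for Ccl2 in keratinocytes, and 29.3%, 12.5% and 8.07% for Ccr2 in macrophages. With gates, keratinocytes held 62.1%, 45% and 11.55% of Ccl2 UMIs and 2.81% (NO_AG) and 43.5% (AG) of Ccl8 UMIs, monocytes and macrophages 1.31% (NO_AG) and 56.9% (AG_CPI) of Ccl2, 79.55% of Ccl8 and 89.25% of Ccl12 in AG_CPI, and T cells 41.5% of Ccr2 in NO_AG. With doublets kept, keratinocytes held 4.67% of Ccl8 UMIs in NO_AG, and monocytes and macrophages 78.05% there and 82.8% in AG_CPI, and 90.2% of Ccl12 in AG_CPI.

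Over the alternatives, genes called for AG against NO_AG, AG_CPI against AG and AG_CPI against NO_AG numbered 4 to 130, 0 to 9 and 6 to 164 in keratinocytes, 145 to 949, 3 to 146 and 365 to 1663 in T cells, 21 to 245, 1 to 21 and 74 to 458 in CD8 T cells, 0 to 4211, 0 to 105 and 0 to 4208 in macrophages, and 28 to 872, 0 to 856 and 1300 to 3882 in all cells, and 0 to 322 for the first in stroma. The main counts were 41, 4 and 53, then 815, 69 and 1433, then 132, 12 and 310, then 1148, 0 and 1184, then 535, 366 and 3149, and 26.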
